A study of Homo sapiens with 6 samples.

Results

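The 10 keratin genes described here are those grouped as simple keratins, KRT7, KRT8, KRT18, KRT19, KRT80 and KRT23, and the suprabasal keratins of mucosa and epidermis, KRT4, KRT13, KRT1 and KRT10. KRT80 was placed in the simple group although it is a keratin of many epithelia. The 10 genes were chosen by gene symbol from the 25349 genes of the count table, with earlier results of these data known. All 10 were present in it. The cells were SCC-9, a human tongue squamous carcinoma line in long use, kept in medium with 400 ng/mL hydrocortisone. MKI67 encodes the proliferation marker Ki67, and the siE7 group was transfected with an siRNA that targets its exon 7. The control group, siNC, received a nonspecific siRNA. Both groups were transfected at 10 nM, first on day 0 and then on day 2, and 3 RNA sequencing libraries per group were made from RNA of day 4. The study lists 3 siRNAs against exon 7, and which of them was used for these libraries is not given in the sources used here. Nothing in the labels says that the libraries came from separate cultures, so the p-values measure only the spread between these libraries, which may be technical.

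Keratins are the intermediate filament proteins of epithelial cells. Each filament is built from a type I and a type II keratin in equal amounts, and epithelia differ in the partners they use. KRT8 (type II) and KRT18 (type I) form the filaments of simple, single-layered epithelium, where KRT7 (type II) and KRT19 (type I) are also found. In stratified epithelium the basal cells make KRT5 and KRT14. The cells above them change to KRT4 and KRT13 in the lining of the mouth, or to KRT1 and KRT10 in epidermis. Squamous carcinomas often make simple keratins beside the basal ones.

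Each library held between 25608192 and 29550264 counts. MKI67 itself stood at 1072, 1029 and 1077 CPM (counts relative to a library size scaled by TMM factors) in the siNC libraries and at 111.8, 124.5 and 107.8 CPM in the siE7 libraries. Its log2 fold change was -3.21 ± 0.114 (SE, n = 3 per group, Benjamini-Hochberg adjusted p = 6.7e-08 in edgeR's quasi-likelihood test). The siE7 replicate 1 library stood apart from the other siE7 libraries. Between it and siE7 replicates 2 and 3, the chi-square of the gene counts per degree of freedom was 61.1 and 72.7, against 6.22 between replicates 2 and 3 and at most 6.17 between siNC libraries. The values without that library are therefore given for each tested keratin and for the gene lists. The 8 squamous cell markers looked up summed to between 16653 and 17384 CPM in siNC and between 15534 and 20631 CPM in siE7. Of these markers, 4 fell (CDH1, KRT5, DSP and TP63) and none of the 8 rose in that test, where 16.0% of all tested genes fell and 18.0% rose. When siE7 replicate 1 was left out, 6 of the 8 fell and 1 (DSG3) rose, against 29.5% and 28.9% of all genes then tested. The 6 fibroblast markers summed to 16.5 to 19.6 CPM in siNC and 18.2 to 24.2 CPM in siE7, most of it COL1A1, and neither of the 2 tested passed. Without siE7 replicate 1, 1 of 3 tested (DCN) rose. DCN had too few counts to be tested over all libraries. It was therefore near the floor, and its entry into the smaller fit rested on the libraries where it was higher. The 4 endothelial markers summed to at most 0.492 CPM and the 4 melanocyte markers to at most 0.327 CPM. The 4 leukocyte markers summed to 2.31 to 3.6 CPM in siNC and 1.34 to 3.10 CPM in siE7, where 2 of the 4 were in the table and nearly all of the sum was CD14, which did not pass (adjusted p = 0.23, edgeR) but fell without siE7 replicate 1 (adjusted p = 0.0022).

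All 6 simple keratins fell with siE7, and none of the suprabasal keratins passed the test. KRT18, KRT80, KRT23 and KRT8 were at 32.7% to 49.9% of their siNC level, and KRT7 and KRT19 at 56.3% and 63.5%. Of the 10 keratins, 8 passed the filter on low counts and were tested together with all other genes, while KRT1 and KRT4 had too few counts. A gene with an adjusted p under 0.05 and a log2 fold change beyond 1 was called a differentially expressed gene (DEG), with the thresholds of the study. Of the 8 tested keratins, 4 were DEGs with lower expression in siE7 (KRT8, KRT18, KRT80 and KRT23), where 4.84% of the 14661 tested genes were (12.2% in either direction). By adjusted p alone, 6 of the 8 fell, against 16.0% of all tested genes (34.0% in either direction). In 7 of the 8, every siE7 library lay below every siNC library, which was so for 22.7% of all tested genes. Because the keratins were chosen with earlier results of these data known, these counts beside the shares are a description. No tested keratin of the 10 was a DEG with higher expression by edgeR (0 genes), where 7.38% of all tested genes were. The same held by DESeq2 (0 genes), where 913 of the 25348 genes tested by it were. By edgeR's adjusted p alone 0 of the 8 rose, against 18.0% of all tested genes. For 8 genes, a count of 0 is near these shares. None of the 8 rose at an unadjusted p under 0.05 in edgeR either, and the share of all genes at that threshold was not taken. The median log2 fold change was -0.92 over the 8 tested keratins and 0.077 over all tested genes. In such bulk samples, fewer cells with simple keratins and less keratin RNA per cell cannot be told apart.

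**Figure D1:**
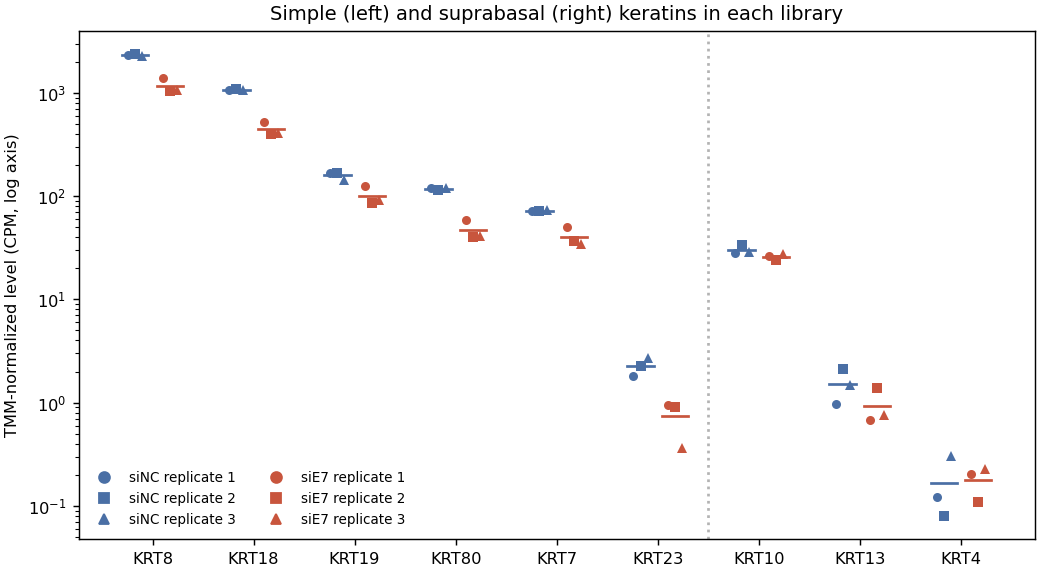
TMM-normalized level of each keratin in each library (CPM, log axis), siNC in blue and siE7 in red, with a horizontal line at the group mean (n = 3). The siE7 points of the 6 simple keratins on the left lie below all siNC points, and the points of KRT13 and KRT4 on the right overlap. KRT1 is not drawn because 5 of its 6 counts are 0.

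KRT8 and KRT18, the partners of the simple keratin filament, had the highest levels among the 10. KRT8 (ENSG00000170421, minus strand of chromosome 12, GRCh38 chr12:52897187-52949954) was measured at 2348, 2363 and 2286 CPM in siNC and at 1386, 1053 and 1056 CPM in siE7. All siE7 libraries were lower than all siNC libraries, with siE7 replicate 1 the highest of the siE7 libraries. The log2 fold change was -1.0 ± 0.126 (SE, 95% interval -1.28 to -0.73, adjusted p = 0.00017, edgeR's quasi-likelihood test). KRT8 thus lay at the threshold of a DEG: it met the fold condition narrowly, and missed it under 7 alternative settings while its adjusted p stayed under 0.05. Among these were the fits without siE7 replicate 2 or 3 (-0.93 in both), without siNC replicate 2 (-1.0 when rounded) and with library totals alone (-0.84). KRT18 (ENSG00000111057, plus strand, chr12:52948871-52952906) was measured at 1063, 1096 and 1055 CPM in siNC and at 525.3, 398.4 and 409.4 CPM in siE7. Here too the groups were fully separated. KRT18 had a log2 fold change of -1.27 ± 0.125 (SE, 95% interval -1.54 to -1.0, adjusted p = 3.3e-05, the same test), the smallest p-value among the 8 tested keratins. Without siE7 replicate 1 the log2 fold changes were -1.21 for KRT8 and -1.47 for KRT18.

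The other simple type II keratins also fell. KRT80, a type II keratin of many epithelia that is found near desmosomes, lies on the minus strand at chr12:52168996-52192014. It was measured at 119.7, 114.6 and 120.2 CPM in siNC and at 58.6, 40.18 and 41.25 CPM in siE7, without overlap. Its log2 fold change was -1.34 ± 0.149 (SE, 95% interval -1.67 to -1.01, adjusted p = 7.5e-05, edgeR), and -1.60 without siE7 replicate 1. KRT7, a keratin of glandular and ductal epithelium, lies on the plus strand at chr12:52232520-52252186. Its levels were 71.05, 72.3 and 72.63 CPM in siNC, a narrow range, and 49.83, 37.14 and 34.67 CPM in siE7. The log2 fold change of KRT7 was -0.83 ± 0.143 (SE, 95% interval -1.14 to -0.52, adjusted p = 0.0013, edgeR), so it fell without reaching the fold condition of a DEG. Without siE7 replicate 1 it was -1.07, which met that condition.

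The simple type I keratins beside KRT18 were KRT19 and KRT23. KRT19, the shortest keratin, which lacks most of the tail domain, lies on the minus strand of chromosome 17 at chr17:41523617-41528308. It was measured at 166.9, 167.3 and 142.4 CPM in siNC and at 124.9, 86.7 and 90.9 CPM in siE7. The highest siE7 library, replicate 1, came closest to the lowest siNC library, replicate 3. Its fall was larger without siE7 replicate 1, at -0.90. The log2 fold change of KRT19 over all 6 libraries was -0.66 ± 0.148 (SE, 95% interval -0.98 to -0.33, adjusted p = 0.0059, edgeR), not beyond 1. KRT23 (minus strand, chr17:40922700-40937646) was the least abundant of the simple keratins, with 45, 56 and 71 counts in the siNC libraries and 28, 25 and 11 counts in the siE7 libraries. These are 1.82, 2.24 and 2.69 CPM against 0.945, 0.906 and 0.360 CPM. Its log2 fold change of -1.61 ± 0.368 (SE, 95% interval -2.42 to -0.81, adjusted p = 0.0061, edgeR) was the largest of the 8 and the least precise of the simple keratins. Its interval contained the values of the other simple keratins except KRT19 (-0.66). Without siE7 replicate 1 the value of KRT23 was -1.91.

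The siE7 replicate 1 library had the highest value among the siE7 libraries for all 6 simple keratins, at 1.30 to 1.49 times the mean of the other two. It was the highest siE7 library for 43.2% of all tested genes and for 56.5% of the genes that fell. Without it, each of the 6 simple keratins had a larger fall.

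The suprabasal keratins gave no call. KRT10, the type I keratin of the epidermal suprabasal layers (minus strand, chr17:40818117-40822614), was measured at 28.31, 33.87 and 28.97 CPM in siNC and at 26.18, 24.17 and 27.64 CPM in siE7. The groups did not overlap, but the gap between 28.31 and 27.64 CPM was small. KRT10 had a log2 fold change of -0.22 ± 0.131 (SE, 95% interval -0.51 to 0.06, adjusted p = 0.21, edgeR). Without siE7 replicate 1 it was -0.29 (adjusted p = 0.0075, edgeR). KRT13, the type I keratin of the mucosal suprabasal layers (minus strand, chr17:41500981-41505705), had 24, 53 and 39 counts in siNC and 20, 38 and 23 counts in siE7. Its groups overlapped. KRT13 had a log2 fold change of -0.71 ± 0.394 (SE, 95% interval -1.57 to 0.15, adjusted p = 0.19, edgeR), an interval wide enough to hold both no difference and the change of each simple keratin except KRT23. Without siE7 replicate 1 the value of KRT13 was -0.59 (adjusted p = 0.18, edgeR).

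KRT4, the type II partner of KRT13 (minus strand, chr12:52806549-52814116), had 3, 2 and 8 counts in siNC and 6, 3 and 7 counts in siE7. The sums of 13 and 16 counts have 95% Poisson intervals of 6.92 to 22.2 and 9.15 to 25.98 counts, which cover counting error only, and no difference was detectable at this depth. KRT1, the type II partner of KRT10 (minus strand, chr12:52674736-52680407), had 4 counts in siNC replicate 1 and none in the other 5 libraries. The 4 counts have a 95% Poisson interval of 1.09 to 10.2 counts, and the count of 0 in siE7 allows up to 3 counts, or 0.0342 CPM over the group, by the one-sided limit used for a count of 0. The two-sided 95% Poisson interval of that 0 reaches 3.69 counts, or 0.0420 CPM. Both keratins were therefore close to or below the limit of detection in SCC-9 cells of either group.

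Levels of different genes were compared per kilobase of canonical transcript. The order of the mean levels in siNC was KRT8 (1307 CPM per kb), KRT18 (758), KRT19 (114), KRT7 (44.3), KRT80 (30.5), KRT10 (14.2), KRT23 (1.02) and KRT13 (0.889). In siE7 the order was KRT8 (653 CPM per kb), KRT18 (314.5), KRT19 (72.5), KRT7 (24.9), KRT10 (12.1), KRT80 (12.1), KRT13 (0.545) and KRT23 (0.334). KRT80 stood above KRT10 in siNC, at 30.5 ± 0.797 against 14.2 ± 1.42 CPM per kb (SD, n = 3), whereas in siE7 these neighbours differed by less than their SD (2.67 for KRT80 and 0.814 for KRT10). KRT23 and KRT13 likewise differed by less than the SD of KRT13 in both groups (0.336 CPM per kb in siNC and 0.225 in siE7). All other neighbours in the order were separated by more than the sum of their SDs.

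Next, the ratio of filament partners was taken within each library, where it does not depend on how libraries are scaled. The KRT8 to KRT18 ratio of counts was 2.21, 2.16 and 2.17 in siNC and 2.64, 2.64 and 2.58 in siE7. The 3 siE7 ratios lay above the 3 siNC ratios and were as tightly grouped, and siE7 replicate 1 lay within 0.01 of replicate 2. The ratio was 1.20 times as high in siE7, a log2 difference of 0.267 with SDs of 0.0183 and 0.0194 (n = 3 per group, exact permutation p = 0.1, two-sided, which is the smallest that 3 against 3 libraries can give). The KRT7 to KRT19 ratio was 0.426, 0.432 and 0.510 in siNC and 0.399, 0.428 and 0.381 in siE7, so the groups overlapped. Its log2 difference was -0.175 (n = 3 per group, exact permutation p = 0.2). The KRT4 to KRT13 ratio rested on single-digit counts of KRT4 and spread from 0.0377 to 0.304 over the 6 libraries, with a log2 difference of 0.893 (exact permutation p = 0.5). Over these 3 ratios no p-value passed 0.05, which the design does not allow.

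**Figure D2:**
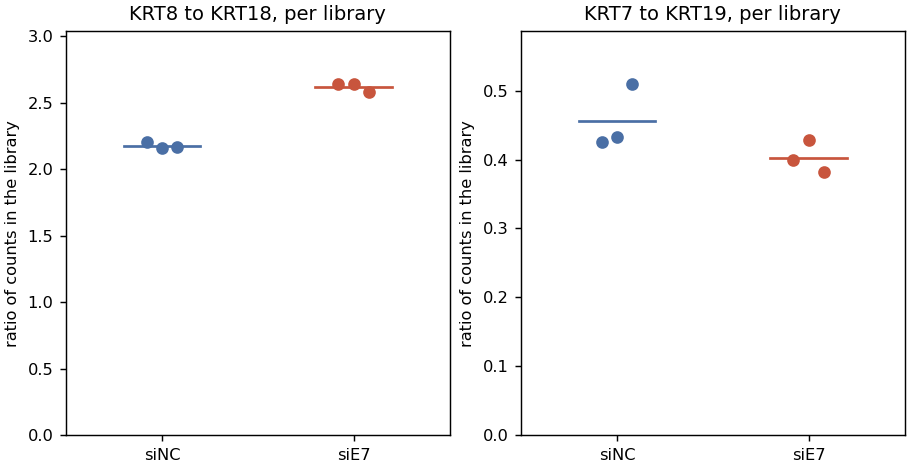
Ratio of the counts of KRT8 to KRT18 (left) and of KRT7 to KRT19 (right) in each library, with a line at the group mean (n = 3), on linear axes from 0. The KRT8 to KRT18 ratios are 2.16 to 2.21 in siNC and 2.58 to 2.64 in siE7, and the KRT7 to KRT19 ratios of the groups overlap.

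KRT8 and KRT18 lie next to each other on opposite strands, and their annotated exons share 525 bases. The libraries were stranded, and whether strand was used in counting is not given in the sources used here. Without strand, reads in those bases cannot be given to either gene. Cut into windows of 150 bases, the canonical transcript of KRT18 had 12.3% of its windows inside sequence shared with KRT8, and that of KRT8 had none. KRT7 overlaps 282 exonic bases of the antisense gene KRT7-AS, which had 8 counts in all 6 libraries, and 5.22% of the KRT7 windows were shared with it. KRT7 also overlaps 32 exonic bases of the pseudogene KRT87P on the opposite strand, which had 351 counts in all. The span of KRT86, on the same strand, overlaps that of KRT7 with 0 shared exonic bases, and KRT86 had 4860 counts in all. KRT10 overlaps 61 exonic bases of KRT10-AS1, which had 127 counts in all, and KRT13 overlaps 476 exonic bases of a long noncoding RNA with 1 count.

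Processed pseudogenes, copies of a messenger RNA inserted elsewhere in the genome, are numerous for KRT8 and KRT18. The table held 18 pseudogenes of KRT8, with 2960 counts or 1.06% of the KRT8 counts, and 13 of KRT18, with 262 counts or 0.217%. KRT8P12, on the plus strand of chromosome 3 (chr3:160565447-160569248), had the most counts. It aligned to 1388 of the 1452 bases of the KRT8 coding sequence with 90.6% identity. A stretch of 60 bases from each is shown with the 3 differing bases in capitals. It was picked for unbroken identity of 20 bases at each end, so it is more alike than the alignment as a whole. The KRT8 bases are coding positions 535 to 594 (chr12:52901159-52901218, minus strand, GRCh38), and the KRT8P12 bases are positions 534 to 593 of its transcript (chr3:160568385-160568444, plus strand).
KRT8: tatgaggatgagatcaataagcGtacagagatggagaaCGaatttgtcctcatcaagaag
KRT8P12: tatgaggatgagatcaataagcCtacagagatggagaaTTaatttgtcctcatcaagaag

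The counts given to KRT8P12 did not follow those of KRT8. They were 202, 182 and 188 in siNC and 266, 289 and 266 in siE7, with a log2 fold change of 0.32 (95% interval -0.05 to 0.68, adjusted p = 0.16, edgeR's quasi-likelihood test) against -1.0 for KRT8. Those of KRT8P3, whose sequence is 97.1% identical to the KRT8 coding sequence, were 233, 200 and 246 in siNC and 185, 117 and 122 in siE7. The log2 fold change of KRT8P3 was -0.89 (95% interval -1.34 to -0.43, adjusted p = 0.007, edgeR). These pseudogenes share sequence with KRT8, and how their reads were divided cannot be read from the counts. With the pseudogenes added to it, KRT8 had a log2 fold change of -0.99.

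The simple keratins were then set against the whole keratin family. The table held 43 keratin genes, of which 10 are those described here, 9 are basal or stress keratins and 24 are others. Keratin counts made up 2.30%, 2.41% and 2.32% of all counts in siNC and 2.73%, 2.23% and 2.29% in siE7, so their total overlapped between the groups. Within it, the 6 simple keratins made up 15.6%, 14.9% and 14.8% in siNC and 7.88%, 7.80% and 7.84% in siE7. The means were 15.1% and 7.84%, a difference of -7.28 percentage points, and the siE7 libraries lay within 0.1 points of each other, replicate 1 included. KRT8 alone went from 9.22% to 9.72% of keratin counts in siNC to 5.07% to 5.09% in siE7, and KRT18 from 4.26% to 4.4% in siNC to 1.92% to 1.97% in siE7. The loss of share was not particular to the simple keratins. The 24 other keratins held 15.7% to 17.5% in siNC and 8.97% to 10.3% in siE7. Most of that was KRT81, at 15.4% to 17.2% in siNC and 8.79% to 10.1% in siE7. The suprabasal keratins held 0.0993% to 0.141% in all 6 libraries. The basal and stress keratins held 67.5% to 68.6% in siNC and 81.7% to 83.1% in siE7, most of it KRT14, at 37.2% to 39.0% and 50.1% to 52.2%. These shares add up to a fixed total and so cannot move independently, and they are given without a test.

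**Figure D3:**
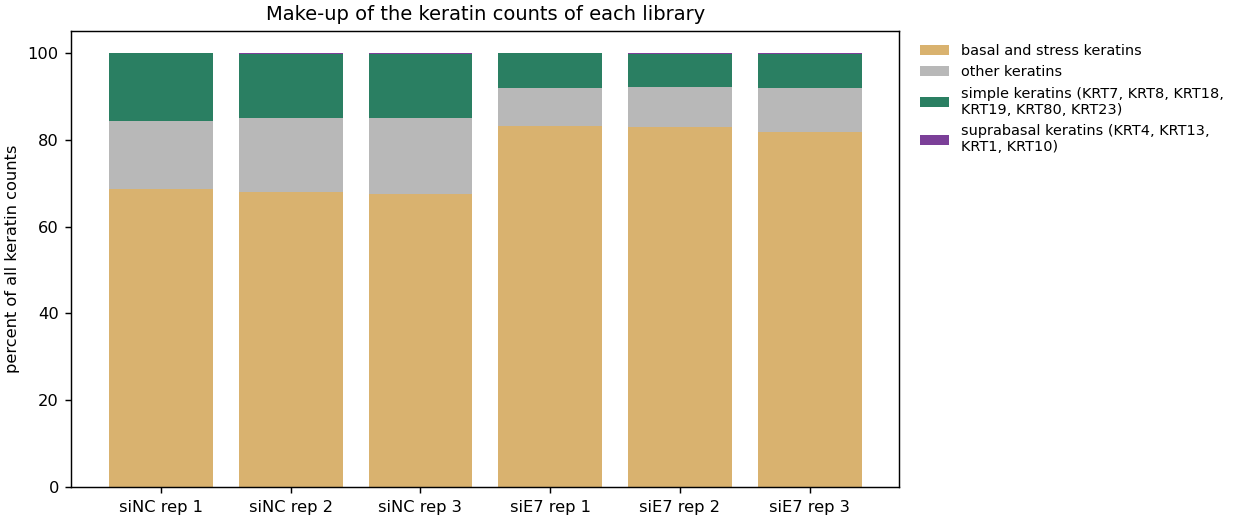
Percent of all keratin counts in each library (vertical axis, from 0) that fell on basal and stress, other, simple and suprabasal keratins, stacked in that order from the bottom. The simple keratins take 14.8% to 15.6% in the siNC libraries and 7.80% to 7.88% in the siE7 libraries. The other keratins take 15.7% to 17.5% and 8.97% to 10.3%, and the suprabasal keratins are too few to be seen as more than a line.

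Of the 9 basal and stress keratins, 8 were tested, of which 1 rose, 3 fell and 4 did not pass, with a median log2 fold change of -0.23, where 18.0% of all tested genes rose and 16.0% fell by adjusted p. With siE7 replicate 1 left out, 1 rose and 5 fell, against 28.9% and 29.5% of all genes tested in that fit. KRT17, a keratin of injured and tumour epithelium, was measured at 1601, 1736 and 1844 CPM in siNC and 3186, 2474 and 2736 CPM in siE7, and rose by 0.70 (95% interval 0.43 to 0.96, adjusted p = 0.0013, edgeR's quasi-likelihood test). KRT6B, a keratin of wounded epithelium, fell by 1.04 on the log2 scale (adjusted p = 0.0015, edgeR) and KRT15, a basal keratin, by 0.78 (adjusted p = 0.0017, edgeR). KRT5 fell by 0.60 (adjusted p = 0.005, edgeR), while its partner KRT14 had a log2 fold change of 0.31 (95% interval 0.03 to 0.59, adjusted p = 0.083, edgeR). The value of KRT14 depended on the scaling: with library totals alone it was 0.47 (adjusted p = 0.0062, edgeR), and without siE7 replicate 1 it was 0.09 (adjusted p = 0.17, edgeR). Of the 24 other keratins, 5 were tested, of which 3 fell and 0 rose (4 and 0 without siE7 replicate 1). KRT86, KRT81 and KRT83, hair keratins, fell by 1.61, 0.94 and 0.69 on the log2 scale (adjusted p = 8.3e-06, 0.00019 and 0.028, edgeR), and KRT83 did not pass with library totals alone (adjusted p = 0.065). These 3 are near-identical paralogs, between which reads may be divided uncertainly. KRT9 and KRT34 did not pass, while KRT9 fell without siE7 replicate 1 (-0.56, adjusted p = 6.5e-06, edgeR).

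In the genome, type II keratins form a cluster on chromosome 12 and type I keratins one on chromosome 17, with KRT18 as the type I gene at the end of the chromosome 12 cluster. This grouping was looked at after the values were known and is a description. Of the 11 tested keratins on chromosome 12, all 11 had a negative log2 fold change under TMM, RLE, upper-quartile and no composition scaling and in DESeq2, and 9 fell by the edgeR test, with a median of -0.94. Of the 18 tested protein-coding genes of other kinds within 0.5 Mb, 7 had a negative value, 0 fell and 1 rose by edgeR, with a median of 0.09. Of the 10 tested keratins on chromosome 17, 3 fell and 1 rose (KRT17), with a median of -0.27. The 24 tested neighbours there had a median of 0.17, with 6 that fell and 8 that rose. Over all tested genes, 16.0% fell and 18.0% rose by adjusted p, with a median of 0.077. Neighbouring keratins share sequence and are not independent.

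**Figure D4:**
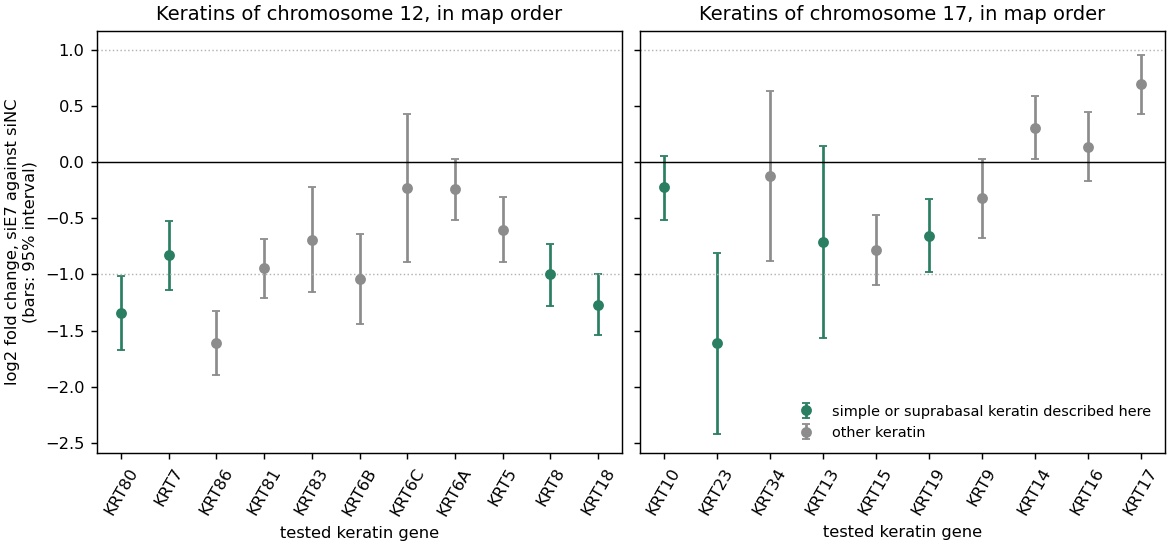
Log2 fold change of each tested keratin with its 95% interval (edgeR, n = 3 per group), in map order along chromosome 12 (left) and chromosome 17 (right), keratins described here in green and others in grey, with dotted lines at -1 and 1. All 11 values on chromosome 12 lie below 0, between -1.61 (KRT86) and -0.23 (KRT6C), while the values on chromosome 17 run from -1.61 (KRT23) to 0.70 (KRT17).

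Genes that work with keratins or mark differentiation were read from lists chosen with earlier results of these data known. Of 16 genes listed as keratin filament partners, 15 were tested, of which 8 fell, 1 rose and 6 did not pass. Their median log2 fold change was -0.37 against 0.077 for all tested genes. Most encode proteins that bind keratin filaments or anchor them to junctions. VIM, one of the 8 that fell, encodes vimentin, an intermediate filament protein of another type. Of all tested genes 16.0% fell and 18.0% rose by adjusted p. In the fit without siE7 replicate 1, 12 of the 15 fell and 1 rose, against 29.5% and 28.9% of all genes then tested. PPL (periplakin, which links filaments to the cornified envelope and desmosomes) was measured at 244.1, 247.6 and 255.0 CPM in siNC and 96.15, 73.51 and 72.97 CPM in siE7, and fell by 1.62 (adjusted p = 8.3e-06, edgeR). JUP (plakoglobin, a desmosome protein) and DST (dystonin, which anchors keratins at hemidesmosomes) fell by 0.88 and 0.87 on the log2 scale (adjusted p = 0.00053 and 0.0013, edgeR). The gene of this list that rose was FBF1, with a log2 fold change of 0.77. Of 20 late differentiation products, 16 were in the table and 9 were tested, of which 5 fell, 1 rose and 3 did not pass, against the same 16.0% and 18.0% of all tested genes. With siE7 replicate 1 left out, 7 of the 9 fell and 1 rose, against 29.5% and 28.9% of all genes then tested. SPRR1B, a cornified envelope precursor, had a log2 fold change of -1.97, SBSN (suprabasin) of -1.47 and ECM1 of -1.31. SPINK5, a protease inhibitor, rose by 1.74, from at most 0.881 CPM in siNC to at most 2.13 CPM in siE7, levels near the floor.

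Of 21 transcription factors of stratified differentiation, 20 were tested, of which 7 fell, 2 rose and 11 did not pass, with a median log2 fold change of -0.20. The share of all tested genes that rose was 18.0% and the share that fell 16.0%. With siE7 replicate 1 excluded, 10 of the 20 fell and 3 rose, against 29.5% and 28.9% of all genes then tested. TFAP2A, a factor of epidermal gene expression, was measured at 132.9, 137.8 and 145.0 CPM in siNC and 54.48, 57.42 and 51.48 CPM in siE7, and fell by 1.35 (95% interval -1.59 to -1.11, edgeR). KLF4, a factor of barrier formation, was measured at 6.08, 5.81 and 6.14 CPM in siNC and 11.9, 13.8 and 13.4 CPM in siE7, and rose by 1.12 (95% interval 0.77 to 1.46, edgeR). CEBPA, a factor of keratinocyte differentiation, fell by 0.97 on the log2 scale (adjusted p = 0.0034, edgeR). The other factor that rose was MAF, with a log2 fold change of 2.29 at a level of at most 2.5 CPM. MAF stood at 0.081, 0.12 and 0.871 CPM in siNC, so it passed the filter on low counts through its siE7 libraries. A gene this low in siNC could hardly have been called as falling. All 3 lists held genes that fell and genes that rose, though MAF and SPINK5, which rose, were near the floor in siNC.

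**Figure D5:**
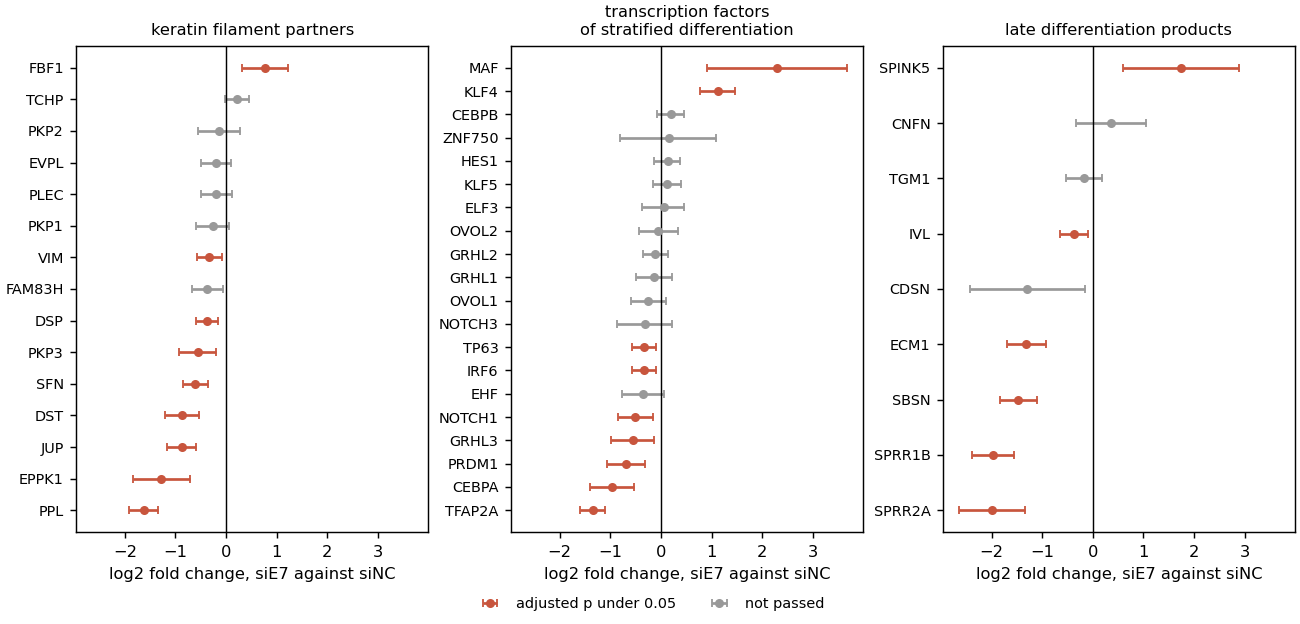
Log2 fold change with its 95% interval (edgeR, n = 3 per group) for the tested genes of 3 lists, one panel each, in red where the adjusted p was under 0.05 and in grey where it was not. Of the genes shown, 8 fell and 1 rose among the filament partners, 7 fell and 2 rose among the transcription factors, and 5 fell and 1 rose among the late products.

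The genes whose log2 CPM over the 6 libraries was most like that of KRT18 were CDCA4, TENM2 and PLXNA2, with a Pearson r of 0.9996, 0.9995 and 0.9995. The 6 points fall into the siNC and siE7 groups, with siE7 replicate 1 apart in the latter, so they are not evenly spread and no p-value is given. Their log2 fold changes were -1.02 for CDCA4, -0.80 for TENM2 and -0.95 for PLXNA2.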

How the data were processed

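The authors deposited whole-number counts of reads per gene for 6 libraries of SCC-9 cells, without normalization. They describe stranded mRNA libraries sequenced as paired ends. The submitters' processing notes name HISAT2, DESeq2 and GRCh38, while the counting tool, the annotation release and the use of strand in counting are not given in the sources used here. The members and gene lists were chosen with earlier results of these data known, and 1 gene of the list of transcription factors is not reported here. Samples were grouped by their titles. Genes kept by filterByExpr (14661) were scaled by TMM factors and tested by the quasi-likelihood F-test of edgeR 4.0.16 (limma 3.58.1, R 4.3.3), robust, with group as the only term and Benjamini-Hochberg adjustment over all of them. The fit was tested on simulated data. Ratios within a library had 0.5 added to each count and were tested by exact permutation. The KRT1 to KRT10 ratio is not given because KRT1 had no counts in 5 of 6 libraries. Positions and overlaps come from GENCODE 44 on GRCh38, matched to 25283 of 25349 gene identifiers without version. Sequences were read from the transcript sequences of GENCODE 44. Alternatives were DESeq2 1.42.0, limma-voom, other scalings and filters, pseudogenes added, a replicate block and each library left out. Named genes are the 10 keratins, MKI67, the 3 genes of each list with the smallest p-values, genes overlapping the keratins, their pseudogenes, the 3 genes most like KRT18, and genes named for a count of 5 or fewer. KRT5, KRT14, KRT9, KRT34, VIM and MAF were named after their values were seen. Tables were made with Python 3.11.15, pandas 2.3.3 and scipy 1.17.1, and figures with matplotlib 3.10.9.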

Additional observations from a re-analysis of the deposited data

How the results depend on the processing

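Of 120 values of the 8 tested keratins under the alternatives, 112 kept their direction and their status as a DEG or not, 7 no longer met the fold condition, all of them of KRT8, and 1 newly met it (KRT7, -1.07 without siE7 replicate 1). Among the 112, KRT10 passed the adjusted p without siE7 replicate 1 (0.0075), short of the fold condition. The values of KRT8 concerned were -0.98 with upper-quartile factors, -0.84 with no composition scaling, -0.98 with at least 10 counts in every library, -0.99 with pseudogenes added, -1.0 without siNC replicate 2 and -0.93 without siE7 replicate 2 or 3. The number of lower DEGs was 4, ranged from 3 to 5 with 1 library left out, was 6 with no fold condition, and was 0 when tested against a log2 fold change of 1, a test that asks for a fall significantly beyond that size. Library totals alone moved the median of all tested genes by 0.168 on the log2 scale, and the share of higher genes among DEGs from 60.4% to 76.2% (53.2% with DESeq2). Relative to the median, KRT8 was at -1.08 and -1.09 and KRT10 at -0.30 under both scalings. Same-numbered libraries did not deviate together (correlations of -0.055, -0.019 and -0.079). These values cannot exclude a pairing, because siE7 replicate 1 stood apart and sets most of the deviations within its group. With the replicate block the number of lower DEGs was 4 and no call on the keratins changed, and the log2 differences of the ratios were 0.267, -0.175 and 0.893. With 1 library left out, the difference of the KRT8 to KRT18 ratio ranged from 0.26 to 0.278, that of KRT7 to KRT19 from -0.222 to -0.092, that of KRT4 to KRT13 from 0.257 to 1.495, and that of the simple keratins' share of keratin counts from -7.42 to -7.04 points. The share, added after seeing the data, differed by -8.08 points when counts were taken per transcript length. The counts of the gene lists without siE7 replicate 1 were also added after seeing the data. KRT13 and KRT23, with at most 71 counts in a library, are limited by depth.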
